A study of Mus musculus with 22 samples.

Results

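Activity-dependent immediate early genes are the genes that neurons switch on first when they are driven, through kinases that act on transcription factors already present in the nucleus, such as CREB and SRF, and without new protein being made. Their transcripts are short-lived, so a level at the time of death reflects a recent interval. Their products include a synaptic protein as well as AP-1 subunits and zinc finger and nuclear receptor factors, and these transcription factors start a second wave of transcription. In the forebrain they are widely used as markers of recent neuronal activity.

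The 10 genes described here were chosen by symbol, as the rows of the count table whose Ensembl identifier maps to Fos, Fosb, Junb, Egr1, Egr2, Egr3, Egr4, Npas4, Nr4a1 and Arc. They are 10 of the 39056 genes in the table, and all 10 were present and passed the filter on low counts, which left 14072 genes. RNA was taken from the prefrontal cortex (PFC) of 11 male mice aged 8 to 12 weeks, all on a C57BL/6J background and all carrying tetO-EGFP/Rpl10a together with CaMKIIα-tTA, so that the tagged ribosomal subunit depends on a CaMKIIα promoter. Control mice (n = 3; mice 1, 4 and 7) received saline, EtOH mice (n = 4; mice 2, 5, 8 and 9) received ethanol by injection on each of 4 days to a daily dose of 2 g/kg, and EtOH + ABT-888 mice (n = 4; mice 3, 6, 10 and 11) received the same ethanol course with ABT-888, an inhibitor of poly(ADP-ribose) polymerase (PARP), at 25 mg/kg on the last day. Mice of all groups were injected 2 times a day and were killed 2 h after the last injection. No group received ABT-888 without ethanol. Each mouse gave a TRAP library (RNA pulled down with the tagged ribosomes) and a total-RNA library from the same tissue, which is 22 libraries in 6 groups. The sample titles name no mouse, so the libraries of a mouse were matched by the order of their run numbers.

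The total count per library was between 6570957 and 22002618 in TRAP and between 22132534 and 32421392 in total-RNA. Markers fixed for the check of cell type went partly against the label of cortical excitatory neurons in TRAP. Summed over 6 markers of striatal projection neurons, the level was between 6244 and 8171 CPM, which are counts scaled to the size of the library, in TRAP and between 706 and 1348 in total-RNA, with 6 of 6 higher in Control_TRAP than in Control_total-RNA. Of 5 cortical excitatory markers, 4 were lower in Control_TRAP and 0 were higher, whereas 6 of 6 astrocyte, 5 of 5 oligodendrocyte, 5 of 5 microglial and 5 of 5 vascular markers were lower. Of 6 interneuron markers, 3 were higher and 1 was lower in Control_TRAP, and their sum was between 1653 and 2286 CPM in TRAP and between 699 and 1002 in total-RNA. Mean CPM was higher in Control_TRAP than in Control_total-RNA for Gad1 (719 against 302), Gad2 (689 against 313) and Slc32a1 (376 against 64.7), which are not limited to interneurons. It was lower for Pvalb (6.33 against 31.8), Vip (27.1 against 55.2) and Sst (57.6 against 60.1). The sum carries the name of the list and is not a measure of interneurons alone. No marker was at 0 in all libraries of a group. TRAP levels are therefore given as those of the tagged pool, and in such bulk samples fewer cells of a type and less RNA per cell cannot be told apart.

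Upstream sequence was at hand for 7 of the 10 genes (Arc, Egr1 and Egr3 were not in the RefSeq table), and it is shown because these genes moved together from mouse to mouse. Motifs of the factors named above were searched on both strands in the 250 bases before each start site. They were the cyclic AMP response element (CRE) bound by CREB, as its core TGACG, and the CArG box bound by SRF. The table holds 11 windows for the 7 genes, 5 of them for Egr2 and 1 for each of the others. The core was found in 9 of the 11 windows, against 17.8% of all 32851 windows in the table, and 2 of the Egr2 windows lacked it. Counting a gene where any of its windows held the motif, the core was found for 7 of 7 genes, against 19.8% of all 27025 genes. The full CRE, TGACGTCA, which contains the core, was found for 0 of 7, against 1.77%, and a CArG box for 1 of 7, Egr2, against 1.62%. Of 3 other motifs searched, an AP-1 site was found for 0 of 7, against 5.16%. An EGR site was found for 2 of 7, Fosb and Nr4a1, against 5.33%, and TATAAA for 1 of 7, Fos, against 14.3%. The letters are a description, and binding was not measured. Start sites are those of RefSeq, and some windows lie inside the annotated span of the gene. This holds for Npas4 (chr19:4984355-4990316), Nr4a1 (chr15:101254269-101274795) and the Egr2 windows with the core (Egr2, chr10:67535475-67542188). Those windows follow the outermost annotated start of the gene, and the 7 of 7 counts them together with windows that precede it. Sequences are from RefSeq for GRCm38.p6, read 5′ to 3′ on the strand of the gene, with CRE cores (CGTCA where the core is on the other strand) and the CArG box in capitals:

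Fos, chr12:85473640-85473889, plus strand, cores at -129 and -66 from the start site: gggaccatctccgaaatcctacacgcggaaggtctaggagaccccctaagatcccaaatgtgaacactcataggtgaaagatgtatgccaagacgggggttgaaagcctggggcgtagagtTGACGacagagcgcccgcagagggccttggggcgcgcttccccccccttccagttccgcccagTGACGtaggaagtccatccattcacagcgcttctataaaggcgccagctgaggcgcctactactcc

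Junb, chr8:84978749-84978998, minus strand, core at -106: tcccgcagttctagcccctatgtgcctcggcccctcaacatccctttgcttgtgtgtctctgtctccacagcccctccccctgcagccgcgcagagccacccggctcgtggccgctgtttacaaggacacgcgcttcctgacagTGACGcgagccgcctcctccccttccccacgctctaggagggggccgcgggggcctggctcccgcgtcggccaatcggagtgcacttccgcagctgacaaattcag

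Egr2, chr10:67537619-67537868, plus strand, cores at -111 and -55 and CArG box at -72: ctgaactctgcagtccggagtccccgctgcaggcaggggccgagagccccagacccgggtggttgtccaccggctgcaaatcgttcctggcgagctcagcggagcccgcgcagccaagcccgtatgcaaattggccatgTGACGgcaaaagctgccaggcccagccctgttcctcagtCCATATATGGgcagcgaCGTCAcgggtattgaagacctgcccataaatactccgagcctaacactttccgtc

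Npas4, chr19:4990128-4990157, minus strand, 30 bases around cores at -179 and -169: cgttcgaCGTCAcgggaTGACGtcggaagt

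In Control mice, which had received saline injections, the level per transcript length, as CPM divided by the exon length in kilobases (RPKM), was highest for Egr1 in both pools and lowest for Egr2. In Control_total-RNA the order was Egr1 (42.8 ± 5.49 RPKM, SD, n = 3), Arc (23.9 ± 3.63), Egr3 (13.1 ± 1.81), Nr4a1 (8.15 ± 0.990), Junb (7.12 ± 0.714), Fos (4.97 ± 0.842), Egr4 (4.64 ± 0.835), Npas4 (2.45 ± 1.19), Fosb (1.42 ± 0.177) and Egr2 (0.996 ± 0.104). Neighbours whose ranges over the 3 mice overlapped were Nr4a1 and Junb, Fos and Egr4, and Npas4 and Fosb. In Control_TRAP, Egr1 stood at 121 ± 12.4 RPKM, clear of Arc at 32.9 ± 13.4. Below it the ranges of Arc and Egr3 overlapped, as did those of Nr4a1, Junb and Egr4 with their neighbours and those of Npas4, Fos and Fosb with theirs, and Egr2 was last at 1.83 ± 0.400 RPKM. All other levels below are normalized CPM, which compare libraries but not genes.

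**Figure D1:**
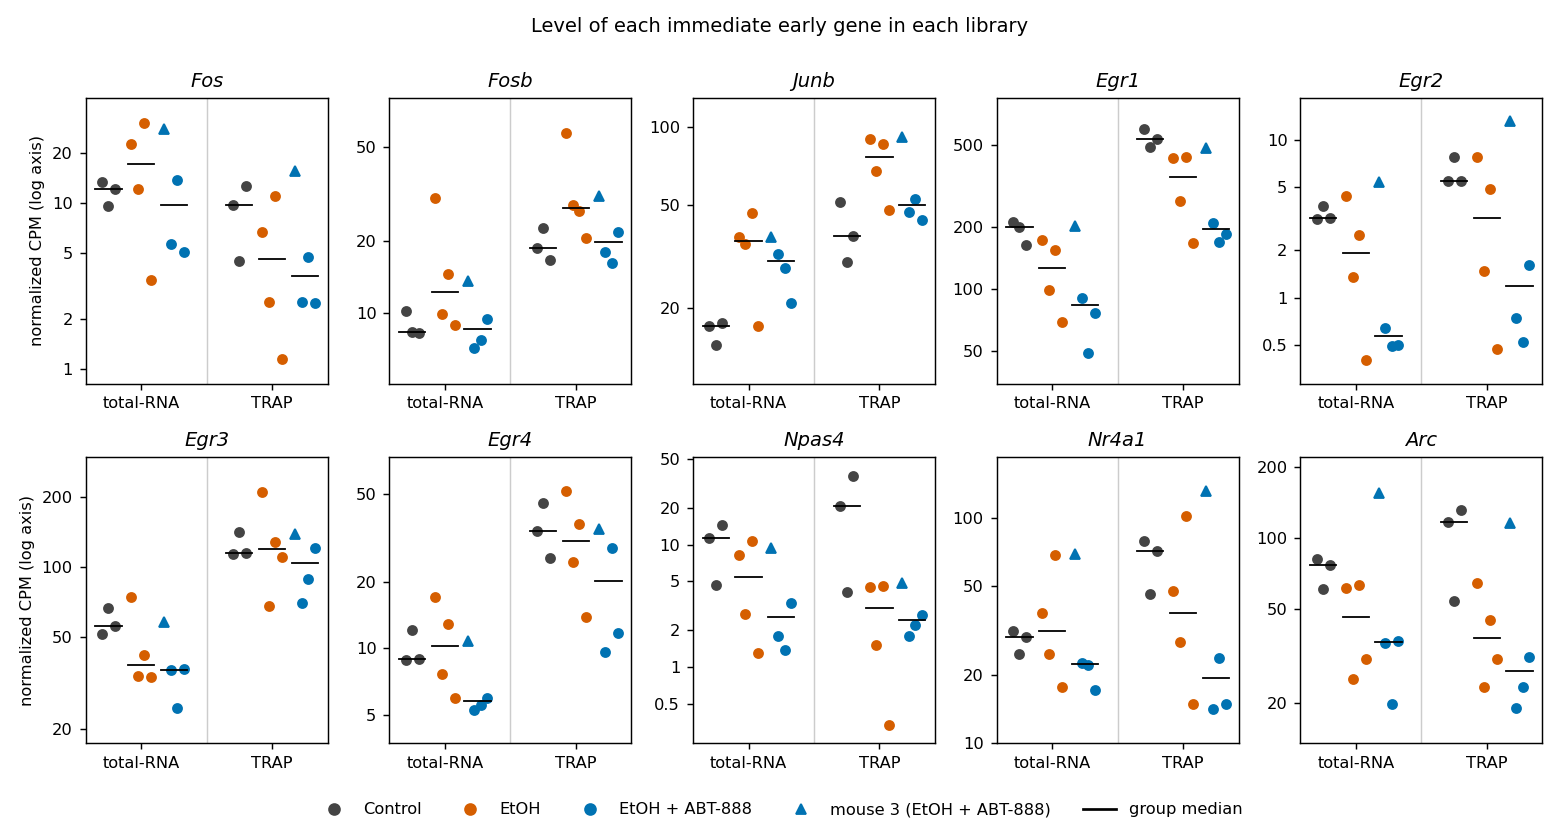
Normalized CPM (log axis) of each of the 10 genes in each of the 22 libraries, by pool and treatment, with a bar at each group median and a triangle for mouse 3. Mouse 3 is the highest of the 4 EtOH + ABT-888 mice for 10 of 10 genes in both pools.

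The first question was whether ethanol changed these genes in the tissue as a whole. In total-RNA, 1 of the 10 genes, Junb, passed the test between EtOH and Control, and it rose. Over all 14072 genes, 17.6% passed in this comparison (9.04% higher and 8.6% lower), so that 1 of 10 is not above the background. The median log2 fold change of the 10 genes was -0.10, against 0.00 for all genes, with 5 above 0 and 5 below. For 0 of 10 genes did the groups fail to overlap, against 30.5% of all genes.

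The AP-1 subunits, which pair as dimers on AP-1 sites, had the highest log2 fold changes of the 10 genes in this comparison. Junb (chr8:84974484-84978718) stood at 17.1, 14.5 and 17.5 CPM in Control_total-RNA and at 37.6, 35.2, 46.4 and 17.1 CPM in EtOH_total-RNA. Mice 2, 5 and 8 lay well above all Control mice, and mouse 9 lay among them. The log2 fold change was 1.06 ± 0.25 (SE; 95% interval 0.52 to 1.60; adjusted p = 0.0133, edgeR's quasi-likelihood test), a 2.09-fold rise. Without the Control library of mouse 4 it was 0.98 with an adjusted p of 0.0673, and with 1 fit over all 22 libraries the adjusted p was 0.0918. Junb shares exon sequence with Prdx2, a peroxiredoxin gene on the opposite strand, and since the strand setting of the counting is not given in the sources used here, its counts may include reads of Prdx2.

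Fosb (chr7:19302696-19310051), whose stable splice product ΔFosB builds up with repeated stimulation, stood at 10.2, 8.30 and 8.19 CPM in Control_total-RNA and at 30.5, 9.87, 14.5 and 8.84 in EtOH_total-RNA. Mouse 2 was far above the rest, and mice 5 and 9 lay within the Control range (log2 fold change 0.85 ± 0.35, adjusted p = 0.103). Counts per gene do not separate the splice products. Fos (chr12:85473890-85477273), the classical activity marker, stood at 13.4, 9.51 and 12.2 CPM in Control_total-RNA and at 22.4, 12.04, 30.4 and 3.46 in EtOH_total-RNA. The EtOH mice lay on both sides of the Control mice (0.55 ± 0.47, adjusted p = 0.435). Without the EtOH library of mouse 9, Fos passed the test at 0.88 (adjusted p = 0.0318) and Fosb at 1.05 (adjusted p = 0.0330).

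The EGR zinc finger factors did not pass edgeR's quasi-likelihood test in total-RNA, while exactTest called Egr1 lower (adjusted p = 0.0462). Egr1 (chr18:34859823-34864984), also called Zif268 and tied to synaptic plasticity, stood at 211, 201 and 164 CPM in Control and at 174, 99.8, 155 and 69.3 with EtOH. Of the EtOH mice, 3 of 4 lay below the lowest Control mouse (log2 fold change -0.62 ± 0.24, adjusted p = 0.0840). Egr2 (chr10:67535475-67542188), a factor known for its part in myelination, gave -0.62 ± 0.48, Egr3 (chr14:70077203-70082614), which is induced with Egr1, gave -0.33 ± 0.23, and Egr4 (chr6:85511121-85513589) gave 0.13 ± 0.29. Their adjusted p-values were 0.397, 0.338 and 0.787. Without the EtOH library of mouse 2, Egr1 (-0.82) and Egr3 (-0.65) passed with adjusted p-values of 0.0314 and 0.0111, so that the outcome for both turned on 1 mouse.

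Npas4 (chr19:4984355-4990316), a factor restricted to neurons that responds to calcium entry, stood at 11.3, 4.72 and 14.4 CPM in Control_total-RNA and at 8.16, 2.74, 10.7 and 1.30 in EtOH_total-RNA (-0.82 ± 0.52, adjusted p = 0.296). The groups overlapped. Nr4a1 (chr15:101254269-101274795), an orphan nuclear receptor also called Nur77, gave 0.39 ± 0.33 (adjusted p = 0.447), with mouse 8 at 68.9 CPM and the other mice of both groups between 17.8 and 37.8. Arc (chr15:74669083-74672570), which acts at synapses in the removal of AMPA receptors, stood at 81.6, 60.5 and 77.0 CPM in Control and at 61.6, 25.3, 63.2 and 30.8 with EtOH. Mice 2 and 8 lay within the Control range and mice 5 and 9 below it (-0.69 ± 0.27, adjusted p = 0.0892). Without the EtOH library of mouse 8, Arc passed at -0.89 (adjusted p = 0.0465).

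Of the 5 markers of microglia, 4 fell in the same comparison. Their sum was between 219 and 233 CPM in Control_total-RNA and between 75.8 and 110 in EtOH_total-RNA, and of the 5 cortical excitatory markers 2 were lower. In the other lists Gad2 (interneurons, 0.40), Mobp (oligodendrocytes, 0.79), Ppp1r1b (striatal projection neurons, 0.67) and Gfap (astrocytes, 0.75) were higher, and Aqp4 (astrocytes, -0.41), Rgs5 (-0.58) and Flt1 (-0.45, both vascular) were lower. They were 1 marker of each list in each direction, apart from 2 of 5 vascular markers. The part of these shifts in the members' values was not tested.

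In TRAP the same question concerns the RNA held on tagged ribosomes. Of the 10 genes, 3 passed the test between EtOH_TRAP and Control_TRAP, with Npas4 and Arc lower and Junb higher, against 5.24% of all genes (2.77% higher and 2.47% lower). The members' median log2 fold change was -0.56, against 0.02 for all genes, with 7 of 10 below 0, against 48.5% of all genes. Egr1 was the 1 gene of 10 whose groups did not overlap, against 11.9% of all genes lower in this way.

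Npas4 had the largest difference of the 10. It stood at 20.6, 4.09 and 36.4 CPM in Control_TRAP and at 4.50, 1.53, 4.56 and 0.339 in EtOH_TRAP. Control mice 1 and 7 lay far above every EtOH mouse, while Control mouse 4 lay within the EtOH range, and the lowest value rested on 5 counts. The log2 fold change was -2.88 ± 0.71 (95% interval -4.41 to -1.35; adjusted p = 0.0386), a 7.37-fold difference. Arc stood at 117, 53.8 and 131 CPM in Control_TRAP and at 64.4, 23.3, 44.8 and 30.7 in EtOH_TRAP. Here 3 of 4 EtOH mice lay below the lowest Control mouse (-1.29 ± 0.33; interval -2.01 to -0.58; adjusted p = 0.0427). Junb stood at 51.1, 30.2 and 38.0 CPM in Control_TRAP and at 90.0, 67.4, 85.5 and 47.7 in EtOH_TRAP, so that 3 of 4 EtOH mice lay above every Control mouse (0.89 ± 0.24; interval 0.38 to 1.40; adjusted p = 0.0481).

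These 3 calls were close to the threshold. Without the Control library of mouse 1 or mouse 7, or without the EtOH library of mouse 5 or mouse 8, 0 of the 10 genes passed. The adjusted p-values of Npas4 were then 0.118, 0.204, 0.0835 and 0.0505, with log2 fold changes between -3.28 and -2.15. Those of Arc were 0.164, 0.191, 0.0841 and 0.0720, and without the EtOH library of mouse 9 Arc had 0.0529. For Junb they were 0.0765, 0.183, 0.0760 and 0.0922, with 0.0893 without EtOH mouse 2 and 0.204 without Control mouse 4. With 1 fit over all 22 libraries Junb (adjusted p = 0.0734) and Arc (adjusted p = 0.176) were also lost, and with edgeR's filterByExpr as the filter on low counts Junb was (adjusted p = 0.0518). All 3 genes kept their sign in all 7 fits that each left out a library.

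Egr1 in TRAP stood at 601, 491 and 536 CPM in Control and at 435, 269, 438 and 167 with EtOH. Every EtOH mouse lay below every Control mouse, yet the difference did not pass the test over all genes (-0.71 ± 0.26, adjusted p = 0.130). Fosb stood between 16.7 and 22.8 CPM in Control_TRAP and between 20.8 and 57.2 in EtOH_TRAP (0.79 ± 0.29, adjusted p = 0.135), and without the EtOH library of mouse 9 it passed at 0.95 (adjusted p = 0.0429). The other 5 genes had log2 fold changes from -0.78 ± 0.63 for Egr2 to 0.07 ± 0.27 for Egr3, with Fos at -0.72 ± 0.59, Nr4a1 at -0.41 ± 0.47 and Egr4 at -0.14 ± 0.34, and adjusted p-values between 0.488 and 0.913. Their groups overlapped.

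Some markers of cell types moved with these values, 1 of 5 for cortical excitatory neurons, 1 of 5 for microglia and 1 of 6 for striatal projection neurons, all 3 lower and with 0 higher. Summed over the cortical excitatory markers Slc17a7, Neurod6 and Tbr1, the level was between 442 and 554 CPM in Control_TRAP, between 122 and 468 in EtOH_TRAP and between 209 and 351 in EtOH + ABT-888_TRAP. The sum over all 5 markers, of which Camk2a makes up the larger share, was between 2348 and 2606, between 2476 and 3198 and between 2183 and 3184 CPM. In EtOH_TRAP 1 of the 5 passed the test, Neurod6 (log2 fold change -1.68 ± 0.30, adjusted p = 0.0116), while Tbr1 had -1.10 (adjusted p = 0.138), Slc17a7 -0.77 (adjusted p = 0.190) and Camk2a 0.47 ± 0.13 (adjusted p = 0.0542). Of the other lists, the microglial marker P2ry12 (-3.46 ± 0.61, adjusted p = 0.0113) and the striatal marker Drd2 (-0.56 ± 0.14, adjusted p = 0.0406) were also lower in EtOH_TRAP, while the summed striatal level overlapped, at 6318 to 8171 CPM in Control_TRAP and 6244 to 7807 in EtOH_TRAP. With EtOH + ABT-888, Neurod6 was also lower in TRAP (-1.73), as 1 of 2 excitatory markers that passed. The part of these shifts in the members' TRAP values was not tested.

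**Figure D2:**
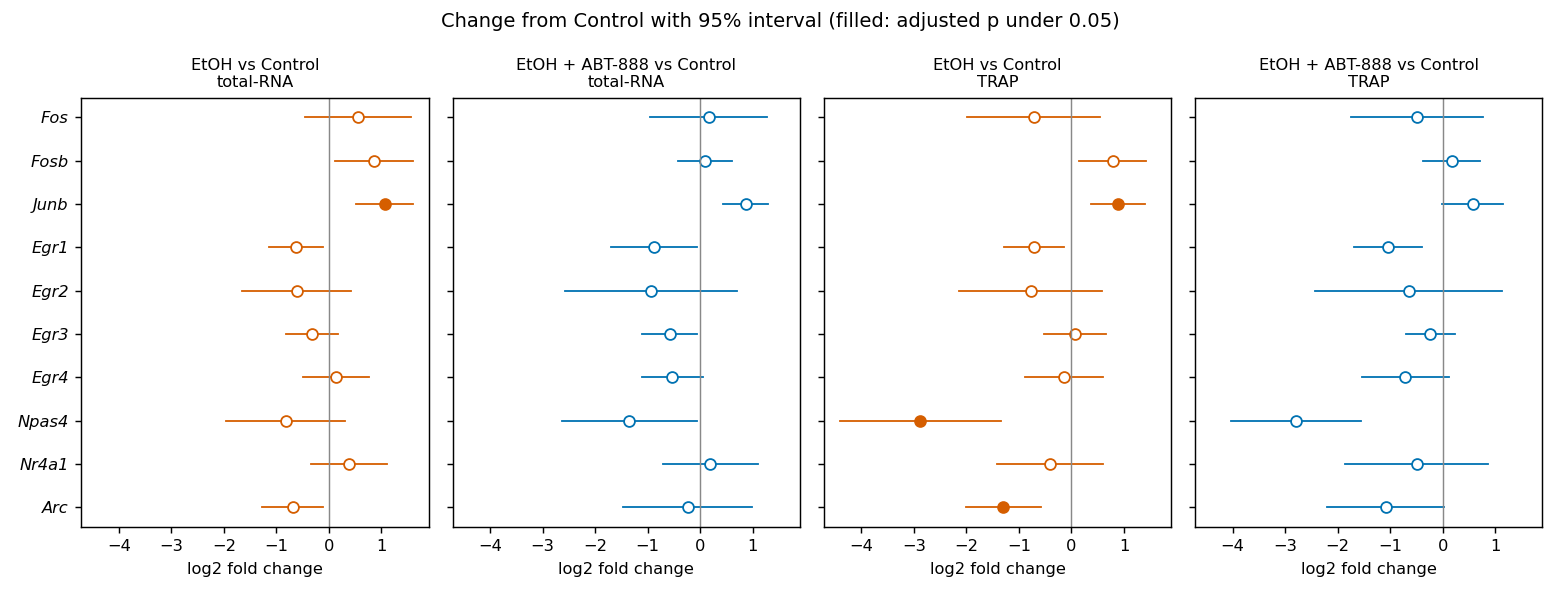
Log2 fold change from Control of each gene, with its 95% interval, for EtOH and EtOH + ABT-888 in total-RNA and TRAP. Filled points passed the test, which are Junb with EtOH in total-RNA and Junb, Npas4 and Arc with EtOH in TRAP.

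The second question was how the genes stood when ABT-888 had been given with ethanol. Between EtOH + ABT-888 and Control, 0 of the 10 genes passed edgeR's quasi-likelihood test in either pool, where 0.263% of all genes passed in total-RNA and 0.476% in TRAP. At an unadjusted p under 0.05 there were 4 of 10 in total-RNA, against 15.9% of all genes, and 2 of 10 in TRAP, against 12.1%. The members' median log2 fold change was -0.38 in total-RNA and -0.57 in TRAP. DESeq2 and edgeR's exactTest each called 1 gene in total-RNA (Junb) and 2 in TRAP (Egr1 and Npas4), where DESeq2 gave an adjusted p for 9 of the 10 genes in total-RNA, without Egr2, and for 8 in TRAP, without Egr2 and Nr4a1. Of all genes, DESeq2 called 4.41% in total-RNA and 2.98% in TRAP, and exactTest 3.88% and 2.26%.

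Nearest to the threshold in TRAP was Npas4, at 4.83, 1.80, 2.21 and 2.67 CPM in EtOH + ABT-888_TRAP. As with EtOH alone, the group lay far below Control mice 1 and 7 and overlapped Control mouse 4 (-2.80 ± 0.57; 95% interval -4.04 to -1.56; adjusted p = 0.0594). Egr1 in TRAP, at 483, 209, 170 and 185 CPM, lay below every Control mouse (-1.04 ± 0.30, adjusted p = 0.170). In total-RNA, Junb stood at 37.6, 32.5, 28.6 and 21.1 CPM, above every Control mouse (0.87 ± 0.19, adjusted p = 0.0856). Of the 10 genes, Egr1 in TRAP and Junb in total-RNA were thus the 1 gene in each pool whose groups did not overlap, against 7.75% of all genes lower in this way in TRAP and 8.29% higher in total-RNA. For Junb in TRAP the difference was 0.58 ± 0.27 (adjusted p = 0.419). The microglial marker sum was between 61.3 and 176 CPM in EtOH + ABT-888_total-RNA, below the Control range given above, with 0 of 5 markers past the test, while 1 excitatory marker was lower in that comparison, Neurod6 (-0.80, adjusted p = 0.0471). The part of these shifts in the members' values was not tested.

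A single mouse of this group, mouse 3, ranked highest for the whole family, by a wide margin for some genes and a narrow one for others. Junb in total-RNA was at 37.6 CPM in mouse 3 and 32.5 in mouse 6, and Egr3 in TRAP at 139 in mouse 3 and 120 in mouse 11. Mouse 3 had the highest level of its group for 10 of 10 genes in total-RNA and for 10 of 10 in TRAP, whereas it was the highest of its group for 28.9% and 31.1% of all genes. Arc was at 155 CPM in the total-RNA of mouse 3 and at 35.8, 19.8 and 36.6 CPM in mice 6, 10 and 11, and in TRAP it was at 115 against 19.02, 23.3 and 31.3. Egr2 was at 5.43 CPM in the total-RNA of mouse 3 and at 0.642, 0.497 and 0.506 in the other mice. Nr4a1 in TRAP was at 132 CPM against 14.1, 23.9 and 14.9. Mouse 3 thus lay above the Control range for Arc, Egr2 and Nr4a1 while the remaining mice of its group lay below it, apart from Arc in TRAP, where mouse 3 lay within that range.

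Its libraries were not at the extremes of depth, with 27943180 counts in total-RNA and 12401034 in TRAP. In TRAP its sums of microglial markers (37.5 CPM) and astrocyte markers (174 CPM) were the highest of its group, where mice 6, 10 and 11 lay between 4.32 and 21.3 and between 68.7 and 150. Its sums of vascular (29.4 CPM) and interneuron markers (1962 CPM) in TRAP and of microglial markers in total-RNA (176 CPM) were also the highest, against 12.5 to 22.3, 1653 to 1816 and 61.3 to 133 in the other mice. In total-RNA its astrocyte sum (913 CPM) was the lowest of the group, against 963 to 1114. The part of these differences in the values of mouse 3 was not tested. The labels do not set this mouse apart.

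The next counts leave out mouse 3's library, a choice made after its values were seen, and since this mouse was the highest of its group for 10 of 10 genes the choice itself lowers all 10 values, so the share of all genes beside a count is no like background. Without that library 7 of the 10 genes passed between EtOH + ABT-888 and Control in total-RNA, against 6.18% of all genes, with 6 lower and Junb (0.74, adjusted p = 0.0407) higher. The genes that were lower were Egr2 (log2 fold change -2.62 ± 0.27), Npas4 (-2.20 ± 0.43), Egr1 (-1.40 ± 0.20), Arc (-1.24 ± 0.22), Egr3 (-0.83 ± 0.17) and Egr4 (-0.83 ± 0.19). In TRAP, 5 of the 10 passed and all 5 were lower, against 2.65% of all genes called in that fit. They were Npas4 (-3.14 ± 0.61), Egr2 (-2.64 ± 0.50), Arc (-2.01 ± 0.31), Nr4a1 (-1.85 ± 0.27) and Egr1 (-1.50 ± 0.16). Leaving out the total-RNA library of mouse 10 gave 1 gene, Junb (0.89, adjusted p = 0.0498).

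In the direct comparison of EtOH + ABT-888 with EtOH, 0 of 10 genes passed the quasi-likelihood test in total-RNA and 0 of 10 in TRAP, where 0.0% of all genes passed in both, and 0 of 10 had an unadjusted p under 0.05 in either, against 1.9% and 0.966% of all genes. DESeq2 and exactTest each gave 0 of 10 as well. The log2 differences were between -0.76 (Fosb) and 0.45 (Arc) in total-RNA and between -0.61 (Fosb) and 0.23 (Fos) in TRAP. The intervals were wide. For Npas4 in TRAP the difference was 0.08 with a 95% interval of -1.28 to 1.44, for Arc in TRAP 0.20 (-0.81 to 1.22), and for Junb -0.19 (-0.76 to 0.38) in total-RNA and -0.31 (-0.85 to 0.23) in TRAP. A difference of 2-fold in either direction thus lay within the TRAP interval of Npas4. Fosb came nearest to a difference, with intervals of -1.53 to 0.02 in total-RNA and -1.26 to 0.03 in TRAP. Without mouse 3's library 0 of 10 passed in either pool, and 6 of 10 in each pool had an unadjusted p under 0.05, with all 10 values lowered by that choice, where all genes had 1.71% in total-RNA and 1.12% in TRAP, again no like background. Both treated groups were compared with the same 3 Control mice, so the comparisons with Control are not independent of each other.

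**Figure D3:**
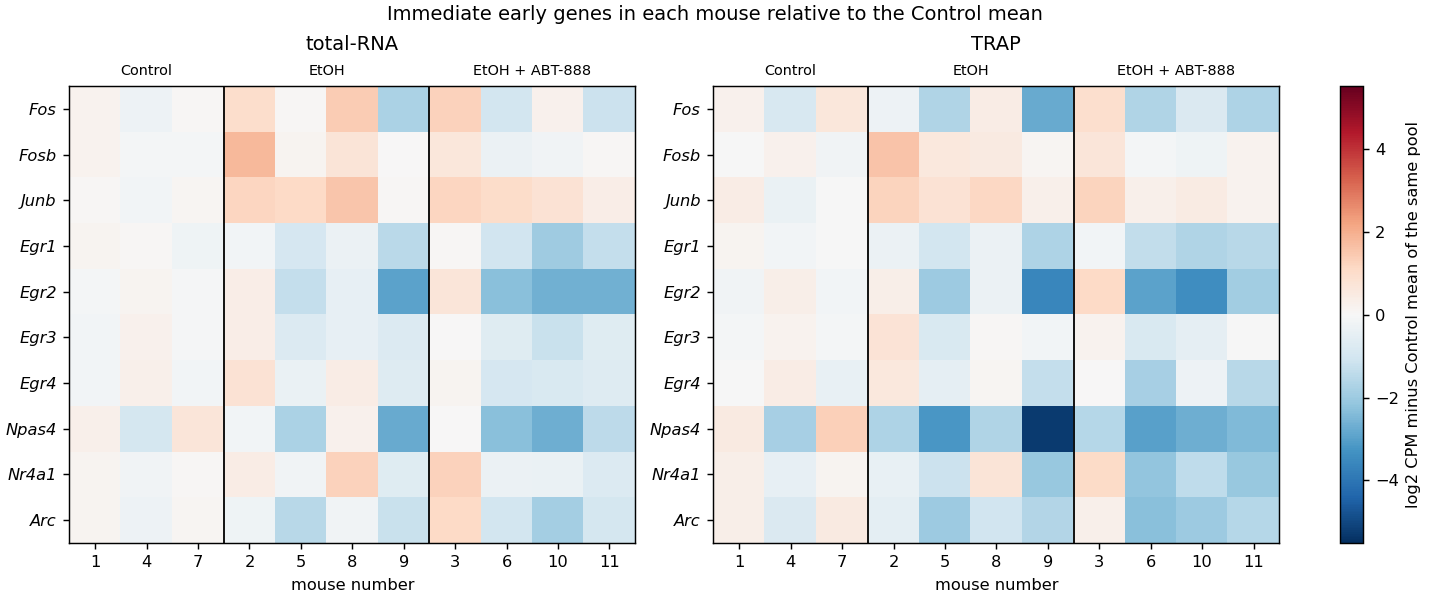
Log2 CPM of each gene in each mouse minus the Control mean of the same pool (blue lower, red higher), with total-RNA on the left and TRAP on the right. Columns of the same mouse number look alike in both pools, with mouse 3 above the rest of the EtOH + ABT-888 group and mouse 9 mostly lowest in the EtOH group.

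The spread between mice was described within each group. The ratio of the highest to the lowest mouse of a group had a median over the 10 genes of 1.29 in Control_total-RNA, 3.16 in EtOH_total-RNA and 4.07 in EtOH + ABT-888_total-RNA, and in TRAP it was 1.71, 3.43 and 3.22. Leaving out the mouse at the extreme narrows a range by construction. Without mouse 3 the ratio in EtOH + ABT-888 was 1.51 in total-RNA and 1.67 in TRAP, and without mouse 9 the ratio in EtOH was 2.51 and 2.87. Leaving out mouse 2 of the EtOH group instead gave 2.60 in total-RNA and 2.64 in TRAP. Over all genes the median of this ratio was 1.18, 1.40 and 1.47 in total-RNA (1.35 without mouse 3) and 1.29, 1.67 and 1.85 in TRAP (1.62). Control groups held 3 mice and the others 4, which by itself widens a range, and these ratios were not tested. Npas4 was the gene with the widest Control range, 3.05-fold in total-RNA and 8.90-fold in TRAP, where it was wider than the 2.69-fold of EtOH + ABT-888. The SD of log2 CPM within treatments lay between 0.45 and 1.32 in total-RNA, at or above the 88.8th percentile of all genes, and between 0.43 and 1.65 in TRAP, at or above the 60.7th percentile. In the EtOH group mouse 9 had the lowest level for 9 of 10 genes in total-RNA and 8 of 10 in TRAP, against 30.1% and 25.8% of all genes.

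A mouse that was high in one pool was high in the other. Across the 11 mice, after removal of each treatment's mean, Pearson's r between the log2 CPM of TRAP and total-RNA was between 0.775 for Junb and 0.976 for Nr4a1, with Spearman's rho between 0.727 (Egr4) and 0.955 (Fos). By an exact permutation of mice within treatments, two-sided and unadjusted, p for r was 0.00434 for Junb, 0.00203 for Nr4a1 and at most 0.0347 (Egr3), and for rho it was at most 0.0344 (Egr4). The same r had a median of 0.471 over all 14072 genes, of which 90% lay between -0.307 and 0.894, and the 10 genes lay between the 82.8th and the 99.8th percentile. With the 2 mice farthest from the median left out, r was between 0.470 (Egr3) and 0.948 (Egr1). Both libraries of a mouse came from the same tissue.

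Outside the family, the genes whose level most resembled the mean of the 10 standardized members over the 11 total-RNA libraries were Gpr3, a constitutively active receptor that raises cyclic AMP (r = 0.899), Ctnnb1, which encodes β-catenin (r = 0.897), Arhgap24 (r = 0.897), Midn (r = 0.885) and Sag (r = 0.861). In the 11 TRAP libraries they were Ctnnd1 (r = 0.952), Ildr2 (r = 0.900), Kcne1l (r = 0.885), Rgcc (r = 0.878) and Eno1 (r = 0.864). These correlations were picked as the highest of all genes and are given as a description with no test.

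The third question was how the level of the genes in the tagged pool compared with that in the whole tissue, which holds all cell types. In Control mice the median log2 difference was 2.96 for striatal and 0.53 for interneuron markers. It was -1.19 for cortical excitatory, -3.35 for astrocyte, -2.93 for oligodendrocyte, -3.59 for microglial and -2.93 for vascular markers. The part of cell composition in the differences of the 10 genes and of the lists below was not tested. In Control mice 7 of the 10 genes were higher in TRAP than in total-RNA (5 with 1 fit over all 22 libraries, without Egr2 and Nr4a1), against 29.5% of all genes higher and 30.4% lower, and in all 7 the groups did not overlap, against 33.7% of all genes higher in this way. The largest difference was that of Egr4, at 34.1, 45.3 and 25.7 CPM in Control_TRAP and 8.87, 12.03 and 8.97 in Control_total-RNA (log2 difference 1.80 ± 0.20, adjusted p = 1.95e-05). Egr1 followed at 1.48 ± 0.12 (adjusted p = 1.29e-06), then Junb at 1.25 ± 0.18, Nr4a1 at 1.17 ± 0.18, Fosb at 1.12 ± 0.16, Egr3 at 1.08 ± 0.12 and Egr2 at 0.87 ± 0.23. Fos was not higher in TRAP, with 9.69, 4.48 and 12.7 CPM against 13.4, 9.51 and 12.2 in total-RNA (-0.40 ± 0.30, adjusted p = 0.270). Npas4 (0.99 ± 0.58) and Arc (0.44 ± 0.26) did not pass either, with adjusted p-values of 0.161 and 0.157. Without the TRAP library of mouse 4 both did, with adjusted p-values of 0.000554 and 4.76e-05 (log2 difference of Arc 0.75), and without that of mouse 7 Fos was lower at -0.80 (adjusted p = 0.0358).

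Under ethanol 5 of the 10 genes were higher in TRAP and 0 lower, against 24.3% and 26.5% of all genes, and with EtOH + ABT-888 likewise 5 and 0, against 19.5% and 21.5%. In both groups the 5 were Egr1, Egr3, Egr4, Fosb and Junb, with log2 differences between 1.04 (Fosb) and 1.51 (Egr4) with EtOH and between 0.97 (Junb) and 1.62 (Egr4) with EtOH + ABT-888. Fosb under EtOH was close to the threshold (adjusted p = 0.0472), and it was lost without the TRAP library of mouse 2 or 8 or the total-RNA library of mouse 5, 8 or 9, with log2 differences between 0.66 and 1.13 and adjusted p-values between 0.0539 and 0.159. Egr1 under EtOH + ABT-888 (adjusted p = 0.0298) was lost without the TRAP library of mouse 3 or the total-RNA library of mouse 6, 10 or 11, at 0.84 to 1.26 with adjusted p-values between 0.0611 and 0.0972. With both libraries of mouse 3 left out, 5 of the 10 genes passed, Egr1 at 1.38 among them, against 36.2% of all genes.

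Since each mouse gave both libraries, the mouse can be held as a block, and this changed calls for Fos and Npas4. With the replicate block, 8, 7 and 6 of the 10 genes passed in Control, EtOH and EtOH + ABT-888, against 62.5%, 58.8% and 54.3% of all genes in those fits, so that the last 2 counts lie near the background. Fos became lower in TRAP with EtOH (-1.78 ± 0.20, adjusted p = 6.44e-05) and with EtOH + ABT-888 (-1.13 ± 0.22, adjusted p = 0.00115), where the fits without the block had given -1.69 ± 0.67 (adjusted p = 0.0531) and -1.03 ± 0.66 (adjusted p = 0.238). Without the block, Fos with EtOH was also called lower with RLE factors (adjusted p = 0.0497), by exactTest (0.0254), with no filter on low counts (0.00891) and with 1 fit over all 22 libraries (0.0468). Fits without the block also called Fos lower without the EtOH_TRAP library of mouse 8 (-2.35), the EtOH_total-RNA library of mouse 9 (-2.02) or the TRAP library of mouse 3 (-1.97). Npas4 became higher in TRAP in Control (0.75 ± 0.24, adjusted p = 0.0217) and lower in TRAP with EtOH (-1.14 ± 0.28, adjusted p = 0.00635).

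Mouse by mouse, the log2 ratio of TRAP to total-RNA for Fos was between -1.08 and 0.07 in Control mice, between -2.22 and -1.46 in EtOH mice and between -1.52 and -0.83 in EtOH + ABT-888 mice. EtOH mice lay below every Control mouse, and EtOH + ABT-888 mice overlapped both. For Npas4 the ratio was between -0.20 and 1.34 in Control, between -1.81 and -0.82 with EtOH and between -0.95 and 0.65 with EtOH + ABT-888, again with EtOH below every Control mouse. Nr4a1 had ratios between 0.89 and 1.32 in Control, between -0.25 and 0.58 with EtOH and between -0.68 and 0.93 with EtOH + ABT-888. The EtOH mice thus lay below every Control mouse for 3 of the 10 genes, Nr4a1 being the third, and above for 0, against 6.69% and 6.05% of all genes. The ratio was above 0 in all 11 mice for 6 of the 10 genes, against 24.5% of all genes. For Egr1 the ratios of the 3 groups lay within 1.20 and 1.79 and overlapped.

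**Figure D4:**
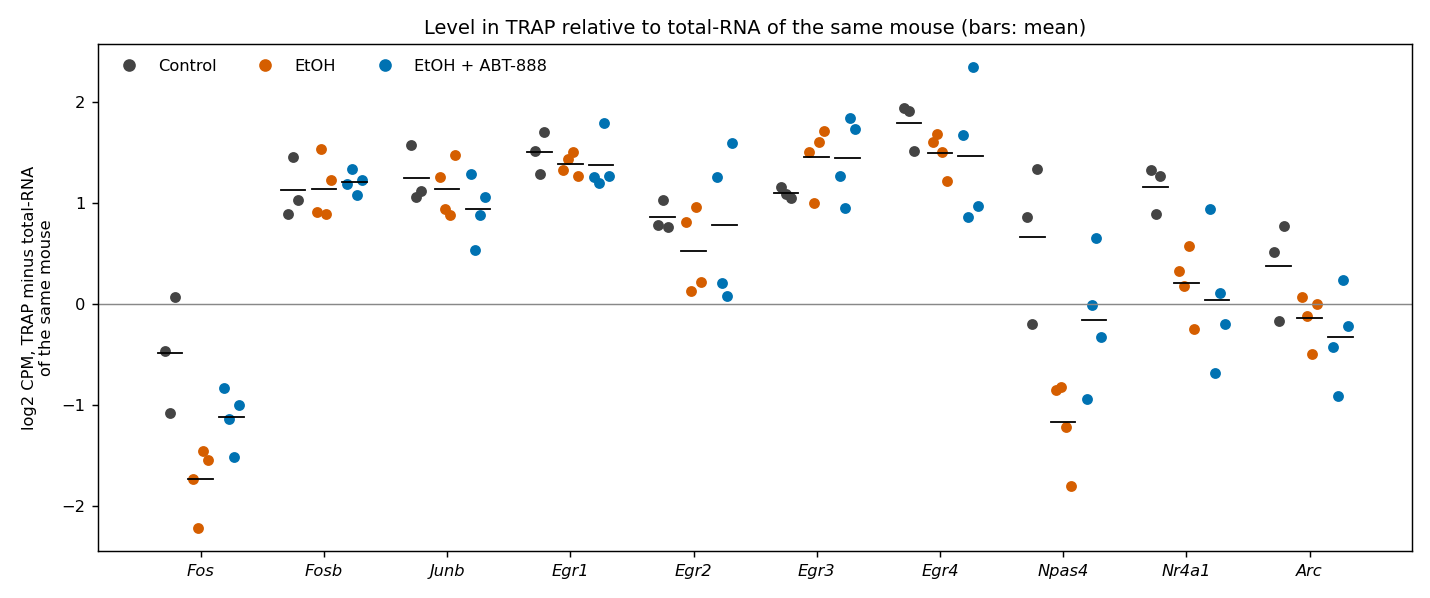
Log2 CPM in TRAP minus that in total-RNA of the same mouse, by gene and treatment, with a bar at each mean. The EtOH mice lie below every Control mouse for Fos, Npas4 and Nr4a1, and Fosb, Junb, Egr1, Egr2, Egr3 and Egr4 lie above 0 in every mouse.

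The test of the difference itself, the effect of treatment in TRAP minus that in total-RNA over all 22 libraries, called 0 of the 10 genes for EtOH, where 0.0213% of all genes passed, and 0 of 10 for EtOH + ABT-888, where 0.0% passed. By edgeR's quasi-likelihood test 0 of 10 had an unadjusted p under 0.05 for either treatment, against 4.87% and 3.38% of all genes, and likewise 0 of 10 by the likelihood ratio test. With the replicate block 0 of 10 passed for either, yet 3 of 10 had an unadjusted p under 0.05 for EtOH, against 10.6% of all genes, and 2 of 10 for EtOH + ABT-888, against 7.36%. For EtOH these were Npas4 (-1.81 ± 0.43, adjusted p = 0.147, against -2.07 ± 1.09 and an adjusted p of 1.00 without the block), Fos (-1.28 ± 0.31, adjusted p = 0.149) and Nr4a1 (-0.94 ± 0.29, adjusted p = 0.263). For EtOH + ABT-888 they were Nr4a1 (-1.08 ± 0.30, adjusted p = 0.398) and Arc (-0.69 ± 0.26, adjusted p = 0.555). All 5 were below 0. A different effect of ethanol in the pools was therefore not shown for any of the 10 genes.

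Lists of related genes place the family among its partners. They hold other immediate early transcription factors (15 genes, 13 tested), activity-regulated effectors (15, all tested), factors that induce the family (15, all tested) and feedback inhibitors (9, 8 tested). Beside their counts stand the 9.04% of all genes higher and 8.6% lower with EtOH in total-RNA, and 2.77% and 2.47% in TRAP. With EtOH in total-RNA, 3 of 13 other immediate early factors rose and 0 fell, with a list median of 0.20. Maff, a small MAF factor, stood at 2.89 ± 1.07 CPM (SD, n = 4) against 0.282 ± 0.152 in Control (n = 3; log2 fold change 3.39 ± 0.44), Klf2 rose by 1.29 ± 0.26 and Btg2, an antiproliferative gene, by 0.60 ± 0.19. Of the 15 effectors 3 rose and 4 fell (list median -0.13), among them Inhba, an activin subunit (-1.37 ± 0.26), Nrn1, which encodes neuritin (-0.71 ± 0.21), Ccn1 (1.32 ± 0.32) and the kinase gene Plk2 (0.54 ± 0.12). Nrn1 overlaps Fars2 on the other strand, which makes its level uncertain.

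Among the inducing factors 2 of 15 rose with EtOH in total-RNA and 0 fell (list median 0.18), the SRF coactivator Mrtfa (0.51 ± 0.13) and Mef2a (0.41 ± 0.12). Of 8 feedback inhibitors 2 rose and 0 fell (list median 0.11), the MAP kinase phosphatases Dusp5 (1.14 ± 0.24) and Dusp1 (0.88 ± 0.21). In TRAP with EtOH, 3 of 13 other immediate early factors fell and 0 rose (list median -0.47), which were Klf10 (-0.93 ± 0.18), Klf6 (-0.83 ± 0.22) and Ier5 (-0.81 ± 0.19). Effectors had 3 of 15 lower, Inhba (-1.69 ± 0.45), Nrn1 (-1.47 ± 0.38) and the postsynaptic scaffold Homer1 (-0.64 ± 0.17), and 1 higher, Plk2 (0.67 ± 0.17), with a list median of -0.42. Mrtfa rose (0.95 ± 0.13) and Crem, a CREB relative, fell (-1.15 ± 0.21) among 15 inducing factors (list median 0.19), and 0 of 8 feedback inhibitors passed (list median -0.22). All-gene medians were 0.00 in total-RNA and 0.02 in TRAP.

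With EtOH + ABT-888, where 0.263% of all genes passed in total-RNA and 0.476% in TRAP, 1 gene of the 4 lists passed in total-RNA, the effector Bdnf, a neurotrophin (-1.18 ± 0.16, with 16.8 ± 2.97 CPM against 38.0 ± 3.34), which overlaps Gm45346 on the opposite strand. The list medians were 0.21 for other immediate early factors, -0.49 for effectors, 0.18 for inducing factors and -0.04 for feedback inhibitors. In TRAP, 1 of 13 other immediate early factors fell, Klf10 (-1.12 ± 0.20), 2 of 15 effectors fell, Nrn1 (-1.64 ± 0.24) and the pentraxin gene Nptx2 (-1.13 ± 0.19), and 1 of 15 inducing factors fell, Crem (-1.15 ± 0.21). The list medians there were -0.26, -0.63, 0.15 and -0.31. In the direct comparison with EtOH, 0 genes of the 4 lists passed in either pool.

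Between the pools the median of the other immediate early factors lay on the opposite side of 0 from that of the 10 genes. In Control mice 7 of 13 were lower in TRAP and 2 were higher (list median -1.05, against 1.10 for the 10 genes and 0.02 for all genes), with Klf4 (-3.40 ± 0.66, at 0.187 CPM against 2.13), Klf6 (-1.76 ± 0.10) and Jun (-1.42 ± 0.13) on the lower side and Jund (1.06 ± 0.17) on the higher side. Of all genes 29.5% were higher and 30.4% lower in this comparison, 24.3% and 26.5% with EtOH and 19.5% and 21.5% with EtOH + ABT-888. With EtOH 9 of 13 were lower, Nr4a2 (-2.48 ± 0.35) and Klf6 (-2.34 ± 0.18) among them, and with EtOH + ABT-888 8 of 13. Effectors were split, with 8 of 15 higher in Control_TRAP, such as Vgf (2.11 ± 0.12), and 6 lower, such as Bdnf (-1.82 ± 0.16). Of the inducing factors 9 of 15 were higher, Srf among them (1.19 ± 0.17), and 5 lower, with Mef2c at -1.43 ± 0.11. Of the feedback inhibitors 3 of 8 were higher and 2 lower in Control_TRAP, and the EGR corepressors stood on both sides, with Nab2 at 1.13 ± 0.14 and Nab1 at -1.62 ± 0.12.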

How the data were processed

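The authors depleted ribosomal RNA, sequenced the libraries, aligned the reads to mm10 with STAR and deposited raw counts per gene from featureCounts with an ENSEMBL annotation, in whole reads and without normalization. The strand setting, the use of molecular identifiers and tool versions are not given in the sources used here. Genes were named and measured for exon length with GENCODE M21, which held 38872 of the 39056 genes. Genes with at least 500 counts over the 22 libraries and detected in at least 3 were kept (14072 kept, 24984 removed).

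The quasi-likelihood test of edgeR 4.0.16 (R 4.3.3) with TMM factors was fitted to the compared libraries alone, while the difference between effects in TRAP and total-RNA was fitted over all 22 libraries. P-values were adjusted by Benjamini-Hochberg over all genes tested, and an adjusted p under 0.05 was called. CPM used TMM factors over all 22 libraries, and log2 CPM a prior count of 1. The fits were tested on simulated data. Depth was between 6570957 and 32421392 counts per library.

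Libraries with the same number were taken to come from the same mouse, which pairs TRAP with total-RNA. The sample titles give run numbers but no mouse, and the pairing follows the order of the runs in each pool. The replicate block, the ratios by mouse and the correlations between pools rest on it. Residuals of the 10 genes correlated between the paired libraries with r between 0.775 and 0.976. Separate mice are the replicates.

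Alternatives were RLE factors, no filter, filterByExpr, DESeq2 1.42.0, exactTest, the likelihood ratio test, an adjusted p under 0.01, 1 fit over all 22 libraries, the mouse as replicate block, leaving out each library and, added after the data were seen, leaving out both libraries of mouse 3. All 10 genes are named. Of each list, up to 4 genes per comparison with the smallest p among those called whose groups do not overlap are named, and of the genes most like the family 5 per pool. The members and lists were chosen with earlier results of these data known. qRT-PCR values are not analysed here. Results that need an item withheld for evaluation are not reported here.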

Additional observations from a re-analysis of the deposited data

Results flagged for a closer look

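Dixon's test was run on CPM in the 40 groups of 4 mice formed by the 10 genes, 2 treatments and 2 pools. Chance gives about 1 in 20 groups where values are normally distributed, which was not checked for CPM. Of the 40 groups, 8 held a mouse far from the others. In each of the 8 it was mouse 3 at the top of EtOH + ABT-888. In total-RNA these were Arc (155 CPM), Nr4a1 (69.2 CPM), Egr4 (10.8 CPM) and Egr2 (5.43 CPM). In TRAP they were Egr1 (483 CPM), Nr4a1 (132 CPM), Arc (115 CPM) and Egr2 (13.01 CPM). Genes and pools of 1 mouse are not independent. The log2 scale narrows a gap at the top of a group relative to its range. Dixon's test was not run on log2 CPM, so the count of 8 holds for CPM alone. The EtOH groups held no such mouse by this test, and the Control groups, with 3 mice, were not tested.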

How the results depend on the processing

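Shares in brackets are those of all genes called by the same fit. RLE factors and filterByExpr kept each count of the 10 genes within 1.5 times, with 2 in place of 3 for EtOH against Control in TRAP with filterByExpr, where Junb was lost (0.88, adjusted p = 0.0518). Between EtOH and Control in total-RNA (1 gene), an adjusted p under 0.01 gave 0 (5.7%), no filter 6 (12.8%), exactTest 2 (Junb and Egr1, 21.4%) and 1 fit over all 22 libraries 0 (1.07%). In TRAP (3 genes) these gave 0 at 0.01 (0.618%), 5 with no filter (6.13%) and 1 with all 22 libraries (8.46%). Between EtOH + ABT-888 and Control (0 genes in either pool), no filter gave 2 in total-RNA and 3 in TRAP (1.99% and 1.91%), DESeq2 1 and 2 (4.41% and 2.98%), and exactTest 1 and 2 (3.88% and 2.26%). TRAP against total-RNA with EtOH + ABT-888 (5 genes) fell to 3 at 0.01 (27.1%). With EtOH (5 genes) it was 6 with RLE factors (50.5%), exactTest (52.6%), no filter (29.2%) and all 22 libraries (53.6%), each with Fos lower. In Control (7 genes) it was 5 with 1 fit over all 22 libraries, without Egr2 and Nr4a1 (42.8%), and 9 with no filter (36.8%). With the replicate block by mouse the counts were 8, 7 and 6 in place of 7, 5 and 5 (62.5%, 58.8% and 54.3%), and it changed no other call than those of Fos and Npas4 given above.

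Leaving out 1 library at a time gave 0 to 3 genes for EtOH and 0 to 7 for EtOH + ABT-888 against Control in total-RNA (6.24% to 25.7% and 0.0% to 6.18% of all genes), 0 to 3 and 0 to 5 in TRAP (0.597% to 11.0% and 0.0% to 2.65%), and 7 to 9, 4 to 5 and 4 to 5 between the pools (52.5% to 59.6%, 43.6% to 50.3% and 32.3% to 42.2%). Among differences that did not pass, some changed sign. Against Control in total-RNA their log2 ranges were Egr4 -0.16 to 0.33 and Nr4a1 -0.085 to 0.61 with EtOH, and Fos -0.52 to 0.43, Fosb -0.14 to 0.21, Nr4a1 -0.47 to 0.41 and Arc -1.24 to 0.056 with EtOH + ABT-888. In TRAP they were Egr3 -0.25 to 0.27 and Egr4 -0.45 to 0.10 with EtOH and Fosb -0.035 to 0.30 with EtOH + ABT-888. Between EtOH + ABT-888 and EtOH they were Fos -1.07 to 0.038, Egr2 -1.996 to 0.32, Egr3 -0.51 to 0.087, Nr4a1 -0.86 to 0.28 and Arc -0.56 to 0.75 in total-RNA, and Fos -0.69 to 0.88, Egr2 -1.87 to 0.76, Egr3 -0.51 to 0.014, Npas4 -0.28 to 0.46, Nr4a1 -1.44 to 0.61 and Arc -0.71 to 0.49 in TRAP. Between the pools they were Nr4a1 -0.33 to 0.85 and Arc -0.47 to 0.044 with EtOH, and Egr2 -0.85 to 2.85, Npas4 -0.82 to 0.40, Nr4a1 -0.88 to 1.17 and Arc -1.33 to 0.62 with EtOH + ABT-888, where leaving out both libraries of mouse 3 gave Npas4 0.038 and Nr4a1 -0.22. The difference of effects was Fosb -0.46 to 0.46 (0.0073 with the block), Junb -0.40 to 0.033, Egr1 -0.30 to 0.12, Egr2 -0.81 to 0.47 and Egr4 -0.62 to 0.027 for EtOH. For EtOH + ABT-888 it was Fos -1.58 to 0.041, Fosb -0.15 to 0.31, Egr1 -0.66 to 0.36, Egr2 -1.73 to 1.98 (-0.044 without both libraries of mouse 3), Egr4 -0.53 to 0.11 and Arc -1.78 to 0.16. The cause of these moves was not tested. Egr2 and Npas4 had the fewest counts, down to 5 for Npas4 in a TRAP library, which limits both.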
